A study of Mus musculus with 6 samples.

Results

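The genes described here are 39 markers of tumour macrophages and dendritic cells, taken from a fixed list of symbols with no cut on their measured values. That list was chosen with earlier results of these data known. Each was read from the probe set whose annotation named it alone, and all 39 had exactly 1 such probe set, among 19938 genes so represented. The list holds 32 macrophage genes (10 pan-macrophage, 5 of Fc receptors and ITAM signalling, 3 of complement C1q, 6 of phagocyte enzymes and lipid handling, and 8 of scavenging and alternative activation) and 7 dendritic cell genes.

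Affymetrix arrays with 1 colour measured RNA in 6 mammary gland tumours of female MMTV-PyMT+ mice of the FVB strain, aged 15 weeks. In these mice the mouse mammary tumour virus promoter drives the polyoma virus middle T oncogene in mammary epithelium, and carcinomas arise in several glands, so both groups carry the same transgene. The DPM group (n = 3 tumours from an arm of 10 mice) received DPM at 10 mg/kg by intraperitoneal injection, and the vehicle group (n = 3, from an arm of 7) received vehicle on the same schedule of 5 days on and 2 days off for 11 weeks, starting at 4 weeks of age. The labels give only the letters DPM. From knowledge of the study they are taken to mean dipyridamole, which blocks uptake of adenosine and other nucleosides into cells and inhibits phosphodiesterases. Only solid tissue without necrosis was used. The labels call the replicates biological and do not say whether each came from its own mouse. The p-values measure only the spread between these samples.

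Macrophages are recruited to growing mammary carcinomas in this model as blood monocytes, under the chemokine Ccl2 and the growth factor Csf1, whose receptor is Csf1r, and they join macrophages that already live in the gland. They clear dying cells through scavenger receptors, Fc receptors and complement, and depending on their surroundings switch on enzymes such as arginase. Dendritic cells depend on the receptor Flt3 and present tumour antigen to T cells. In RNA of whole tumour, fewer macrophages and less RNA of a gene per macrophage cannot be told apart. Several of the 39 genes, among them Apoe, Ctsb and Cd14, are also transcribed by other cells of a tumour.

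The deposited intensities had medians of 270 to 301 per array. Their upper quartiles were 869 and 887 on DPM replicate 3 and vehicle replicate 3, and 717 to 748 on the other 4 arrays. They were brought to a common distribution (quantile normalisation) on the log2 scale, and levels below are log2 intensities after that step. Summed intensities below add these normalised levels on the linear scale and are not sums of deposited intensities. All 7 markers of mammary tumour epithelium (Krt8, Krt18, Krt19, Epcam, Cdh1, Elf5 and Erbb3) were above the filter on low values. Their summed intensity was 32231 to 36363 in DPM and 31699 to 37170 in vehicle tumours. Of 19938 genes 14953 passed the filter, so passing it does not by itself identify the tissue. That filter removed genes whose mean level was below the 25th percentile and left 14953 genes for testing. It removed 2 of the 39, Chil3 and Clec9a, and 37 were tested.

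No difference between DPM and vehicle tumours in the 37 tested genes passed the threshold after adjustment over all genes tested. The limma fit called 0 of them, and 0% of all 14953 genes, at an adjusted p under 0.05, and the adjusted p was 1 for each of the 37. At an unadjusted p under 0.05 there was 1 of the 37, C1qc, against 578 of all genes tested (3.87%). The levels of the 2 groups did not overlap for 1 of the 39 genes, again C1qc, against 6.97% of all genes tested in either direction and 3.48% with DPM below vehicle. For 35 of the 37 genes the 95% interval excluded differences beyond 1 log2 unit either way, and for 22 it excluded those beyond 0.5. The exceptions to the wider limit were Arg1 (-1.05 to 1.60) and Lyve1 (-0.73 to 1.01).

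The mean level was lower in DPM tumours for 28 of the 39 genes, 24 of 32 macrophage and 4 of 7 dendritic, against 49.7% of all genes tested. The median difference, DPM minus vehicle, was -0.11 log2 over the 32 macrophage genes and -0.00 over the 7 dendritic genes, against 0.00 over all genes tested. Without Chil3 and Clec9a the medians were -0.11 and -0.00. The macrophage median moved with single tumours. It was -0.0469 without DPM replicate 3, with 18 of 32 genes lower, and -0.0696 without vehicle replicate 3. Without DPM replicate 1 it was -0.211, with 28 of 32 lower. Without both arrays numbered 3 it was 0.0111, with 15 of 32 lower. At an unadjusted p under 0.05 in limma there were 8 of the 37 tested genes without DPM replicate 1 (Adgre1, Cd14, C1qc, Lyz1, Cybb, Mrc1, Msr1 and Lyve1), all with the lower mean in the DPM tumours left, against 5.04% of all genes tested. Their smallest adjusted p was 0.462. There were 3 of the 37 without vehicle replicate 1 and 3 without vehicle replicate 2, against 537 and 682 of all 14953 genes tested. There were 0 without DPM replicate 2, DPM replicate 3, vehicle replicate 3 or the pair numbered 3. Of all genes tested there were 604, 422, 451 and 316 in those settings.

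**Figure D1:**
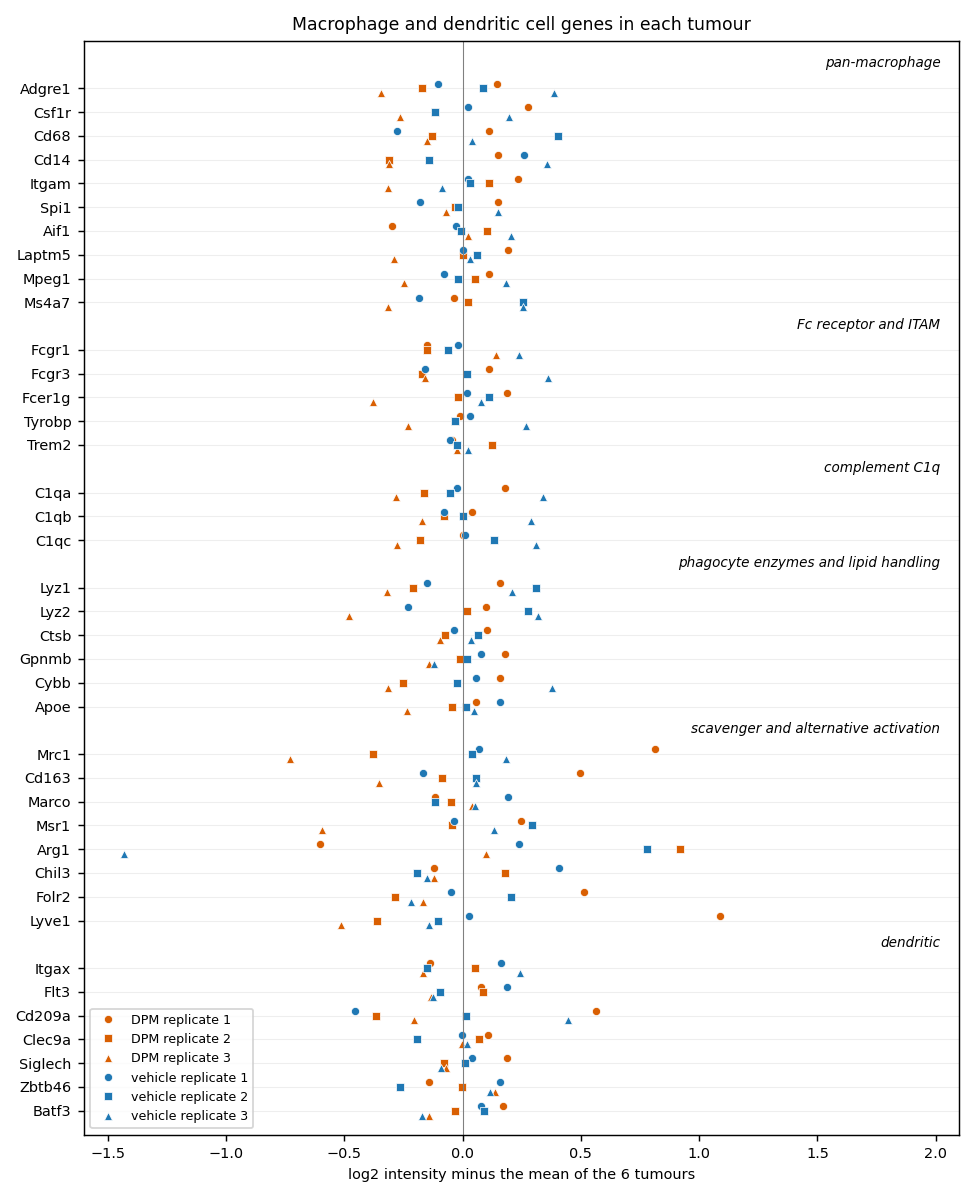
Level of each of the 39 genes in each tumour, as log2 intensity minus that gene's mean over the 6 tumours (horizontal axis), grouped by role. Orange symbols are DPM and blue symbols vehicle tumours, and the shape gives the replicate. After quantile normalisation DPM replicate 3 (orange triangles) was the lowest tumour for 24 of the 39 genes. Mrc1, Lyve1 and Arg1 had the widest spread, with DPM replicate 1 the highest for Mrc1 and Lyve1.

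The tumours differed from each other more in these macrophage genes than in most genes. The median SD within groups was 0.219 log2 for the 32 macrophage genes and 0.152 for the 7 dendritic genes, against 0.135 over all genes tested. DPM replicate 3 had the lowest level of 22 of the 32 macrophage genes, whereas it was the lowest tumour for 20.2% of all genes tested. That ranking depended on the quantile normalisation. In the deposited intensities DPM replicate 3 was lowest only for Itgam, Laptm5, Fcer1g, Lyz2, Mrc1, Cd163, Msr1 and Lyve1 among the 32. Vehicle replicate 3 had the highest level of 13 of the 32 (15.5% of all genes tested), and DPM replicate 1 of 10 (16.3%). After normalisation the lowest and the highest tumour were therefore most often the pair of arrays numbered 3, 1 from each group. Both shared the higher upper quartiles of deposited intensity.

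Among the pan-macrophage genes 8 of 10 had the lower mean in DPM tumours, with a median difference of -0.09. Csf1r encodes the receptor for the growth factors Csf1 and Il34, on which most macrophages depend. It measured 9.92, 9.53 and 9.38 in the DPM tumours and 9.67, 9.53 and 9.84 in the vehicle tumours (replicates 1 to 3 in each case). The vehicle values lay inside the DPM range, and the difference was -0.07 (SE 0.15, 95% interval -0.42 to 0.28, limma adjusted p = 1). Adgre1, which encodes the F4/80 antigen by which mouse macrophages are usually identified, measured 8.98, 8.66 and 8.49 in DPM and 8.73, 8.92 and 9.22 in vehicle tumours. DPM replicate 1 lay above both of the lower vehicle tumours, and the difference was -0.24 (SE 0.16).

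Cd68, a glycoprotein of macrophage lysosomes, measured 10.63, 10.39 and 10.37 in DPM and 10.24, 10.92 and 10.56 in vehicle tumours. Vehicle tumours held both the lowest and the highest value, and the difference was -0.11 (SE 0.17). Cd14, the co-receptor for bacterial lipopolysaccharide, had the most negative difference of the 39 genes, at -0.31 (SE 0.17, 95% interval -0.71 to 0.08). It measured 11.15, 10.69 and 10.69 in DPM and 11.26, 10.86 and 11.36 in vehicle tumours, so that DPM replicate 1 lay above vehicle replicate 2. Leaving out DPM replicate 1 or vehicle replicate 2 gave -0.47, leaving out vehicle replicate 3 gave -0.21, and leaving out both arrays numbered 3 gave -0.14.

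None of the other 6 pan-macrophage genes had an unadjusted p under 0.05. Spi1, which encodes PU.1, the transcription factor that sets up the macrophage programme, averaged 8.63 ± 0.12 in DPM and 8.59 ± 0.17 in vehicle tumours (SD, n = 3 each). Itgam, the integrin chain CD11b that macrophages share with neutrophils, averaged 8.27 ± 0.29 and 8.25 ± 0.07. The differences of Aif1, an actin-binding protein also called Iba1, and Ms4a7, a membrane protein of macrophages, were -0.11 (SE 0.13) and -0.21 (SE 0.15). Those of Laptm5, a lysosomal protein of blood cells, and Mpeg1, a pore-forming protein of phagocytes, were -0.06 and -0.06 (SE 0.12 each). Laptm5 varied little among vehicle tumours (SD 0.03) and more among DPM tumours (SD 0.24), where replicate 3 was lowest at 10.35.

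Fcer1g and Tyrobp encode the ITAM adaptors through which Fc receptors and Trem2 signal, and 4 of the 5 genes of this group had the lower mean in DPM tumours (median difference -0.14). Tyrobp averaged 10.16 ± 0.12 with DPM and 10.34 ± 0.16 with vehicle, and differed by -0.18 (SE 0.11). Fcer1g averaged 10.31 ± 0.29 and 10.45 ± 0.04, the lowest value being 10.00 in DPM replicate 3. The high-affinity IgG receptor gene Fcgr1 and the low-affinity receptor gene Fcgr3 differed by -0.11 (SE 0.13) and -0.15 (SE 0.15). Trem2, a lipid-sensing receptor of tumour macrophages, went slightly the other way, at 9.19 ± 0.09 and 9.16 ± 0.04. Its SD within groups, 0.07, was the smallest of the 32 macrophage genes, with an interval of the difference from -0.17 to 0.24.

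C1qa, C1qb and C1qc encode the 3 chains of C1q, the recognition part of the classical complement pathway, which in tumours is made mainly by macrophages. After quantile normalisation all 3 had their highest level in vehicle replicate 3 and their lowest in DPM replicate 3, and the median difference was -0.18. In the deposited intensities vehicle replicate 3 was again highest, but DPM replicate 3 was not lowest for any of them. It had 964 for C1qa and 3262 for C1qb, where the lowest were 909 (DPM replicate 2) and 2939 (vehicle replicate 2). C1qc measured 11.11, 10.93 and 10.83 in the DPM tumours and 11.12, 11.24 and 11.42 in the vehicle tumours. The groups did not overlap, although DPM replicate 1 and vehicle replicate 1 were separated by only the last digit given. The difference was -0.30 (SE 0.11, 95% interval -0.56 to -0.05), or 0.81 times the vehicle level, with an unadjusted p of 0.0252 and an adjusted p of 1 in limma. The deposited intensities of its probe set were 2014, 1899 and 2051 in DPM and 2137, 2195 and 3140 in vehicle tumours. They did not overlap either, but DPM replicate 3 held the highest of the DPM values there.

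For C1qa the levels were 10.22, 9.88 and 9.76 in DPM and 10.02, 9.99 and 10.38 in vehicle tumours. For C1qb they were 11.71, 11.59 and 11.50 in DPM and 11.59, 11.67 and 11.96 in vehicle tumours. In both genes DPM replicate 1 lay above 2 of the 3 vehicle tumours, and the differences were -0.18 (SE 0.15) and -0.14 (SE 0.11). Leaving out DPM replicate 3 gave a C1qc difference of -0.24 (unadjusted p = 0.0836 in limma). Leaving out vehicle replicate 3 gave -0.23 (0.0931), and leaving out both gave -0.16 (0.225).

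Promoter sequences were searched because C1q genes varied together across the tumours and PU.1, the product of Spi1, is known to bind many macrophage promoters. The search took the 250 bases before the annotated start of each gene (RefSeq, GRCm38.p6) for GAGGAA, the core known as the PU box, on both strands. The motif contains GGAA, which the other ETS factors also recognise. A window was listed for 29 of the 39 genes, and 13 of these 29 (44.8%) held a match, against 25.9% of 27025 genes. C1qa had no window, so of the C1q genes only C1qb and C1qc were searched. A match describes letters and not a bound site. The windows of C1qb (chr4:136886201-136886450, minus strand) and C1qc (chr4:136892915-136893164, minus strand) are shown because the genes lie side by side and C1qc was the 1 gene without overlap. The window of Mrc1 (chr2:14229164-14229413, plus strand) is shown because that gene varied widely between tumours. Capitals mark the motif, or its reverse complement TTCCTC.
C1qb: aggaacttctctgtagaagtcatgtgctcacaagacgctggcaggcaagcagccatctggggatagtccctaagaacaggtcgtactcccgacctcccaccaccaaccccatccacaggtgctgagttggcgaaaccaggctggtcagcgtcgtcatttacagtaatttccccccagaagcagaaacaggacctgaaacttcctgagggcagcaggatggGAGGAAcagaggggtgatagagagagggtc
C1qc: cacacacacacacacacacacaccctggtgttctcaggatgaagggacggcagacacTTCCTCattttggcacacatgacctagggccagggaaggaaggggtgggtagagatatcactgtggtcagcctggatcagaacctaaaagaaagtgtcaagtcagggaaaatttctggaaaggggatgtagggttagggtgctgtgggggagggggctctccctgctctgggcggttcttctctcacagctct
Mrc1: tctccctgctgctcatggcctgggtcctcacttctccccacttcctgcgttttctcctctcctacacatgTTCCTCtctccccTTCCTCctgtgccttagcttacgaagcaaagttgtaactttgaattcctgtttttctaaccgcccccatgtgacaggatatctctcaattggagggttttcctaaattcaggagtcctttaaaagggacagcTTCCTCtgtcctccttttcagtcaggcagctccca

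The match in C1qb began 30 bases before the start on the strand of the gene. That in C1qc began 193 bases before the start on the other strand. Mrc1 held 3 matches, all on the other strand, beginning 180, 167 and 35 bases before the start. Among genes of the dendritic list, Batf3 held a match and Itgax, Flt3, Cd209a, Clec9a, Siglech and Zbtb46 did not. The macrophage genes Fcer1g, Lyz1, Lyz2, Gpnmb, Cybb, Mpeg1, Ms4a7, Cd163, Chil3 and Folr2 held no match either.

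Genes of phagocyte enzymes and lipid handling had the lower mean in DPM tumours for 5 of 6 (median difference -0.20). Lyz1 and Lyz2 encode the 2 lysozymes of the mouse, bacteriolytic enzymes of Paneth cells and of macrophages respectively. They are close paralogs, and how far each probe set also binds the other transcript was not tested. Lyz2 measured 11.32, 11.24 and 10.74 in DPM and 10.99, 11.50 and 11.54 in vehicle tumours. Lyz1 measured 9.21, 8.84 and 8.73 in DPM and 8.90, 9.36 and 9.26 in vehicle tumours. For both, DPM replicate 3 was lowest and vehicle replicate 1 lay within the DPM range, and the differences were -0.25 (SE 0.20) and -0.25 (SE 0.16).

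Cybb, the catalytic subunit gp91phox of the phagocyte NADPH oxidase, averaged 9.70 ± 0.26 with DPM and 9.97 ± 0.21 with vehicle, and differed by -0.28 (SE 0.16, 95% interval -0.64 to 0.08). The apolipoprotein gene Apoe differed by -0.15 (SE 0.09), with its lowest value, 12.76, in DPM replicate 3. Ctsb, the lysosomal protease cathepsin B, averaged 12.46 ± 0.11 and 12.51 ± 0.05, and Gpnmb, a glycoprotein of lipid-laden macrophages, 8.45 ± 0.16 and 8.43 ± 0.10. For these last 2 genes the intervals of the difference were -0.23 to 0.15 and -0.25 to 0.27.

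**Figure D2:**
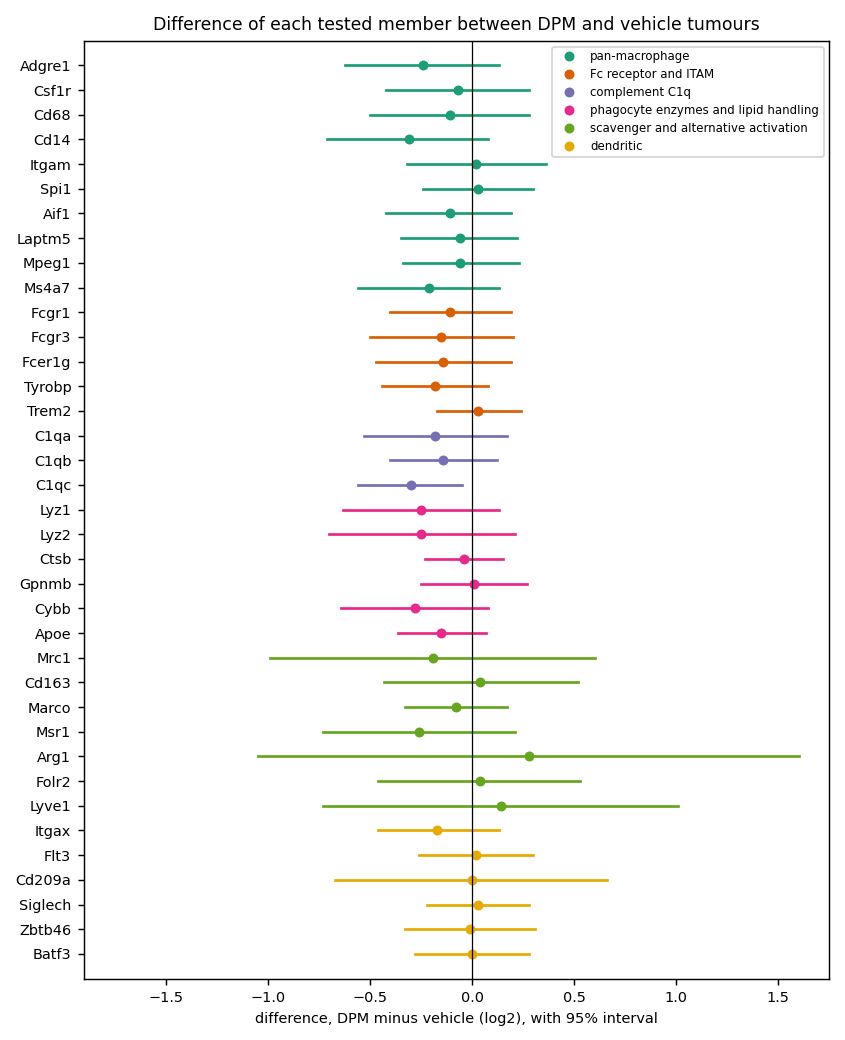
Difference of each of the 37 tested genes, DPM minus vehicle on the log2 scale (points), with its 95% interval from the limma fit (lines, not adjusted for the number of genes), coloured by role. The interval of C1qc (-0.56 to -0.05) was the 1 that did not include 0, and those of Arg1, Lyve1 and Mrc1 were the widest.

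The scavenger and alternative activation genes had no common direction: 4 of 8 had the lower and 4 the higher mean in DPM tumours. Arg1, the arginase that macrophages and suppressive myeloid cells switch on, had the most positive difference of the 39, at 0.28 (SE 0.57), and the widest spread. It measured 9.54, 11.06 and 10.24 in DPM and 10.38, 10.92 and 8.71 in vehicle tumours. The extremes, 5.07-fold apart, were DPM replicate 2 and vehicle replicate 3, with deposited intensities of 2075 and 458. Leaving out DPM replicate 2 gave -0.11, leaving out vehicle replicate 3 gave -0.37 and leaving out vehicle replicate 2 gave 0.73, so the direction changed with single tumours. Vehicle replicate 3, lowest for Arg1, was the tumour highest for all 3 C1q genes.

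Mrc1, the mannose receptor CD206, measured 9.23, 8.04 and 7.69 in DPM and 8.49, 8.46 and 8.60 in vehicle tumours. The vehicle tumours were close together (SD 0.08), while the DPM tumours spanned 1.54 log2 units, above and below them (SD 0.81). The difference was -0.19 (SE 0.34), and -0.65 (SE 0.13, unadjusted p = 0.00182, limma adjusted p = 0.462) without DPM replicate 1. Lyve1, a hyaluronan receptor of perivascular macrophages and of lymphatic endothelium, measured 9.03, 7.58 and 7.43 in DPM and 7.97, 7.84 and 7.80 in vehicle tumours. Its pattern was the same as that of Mrc1, with 1 DPM tumour above and 2 below all vehicle tumours. The difference was 0.14 (SE 0.37), and -0.37 without DPM replicate 1.

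The other genes of this group varied less. Cd163, the scavenger receptor for haemoglobin, averaged 7.38 ± 0.44 in DPM and 7.33 ± 0.13 in vehicle tumours. Folr2, the folate receptor beta of resident macrophages, averaged 8.52 ± 0.43 and 8.49 ± 0.21. Msr1, scavenger receptor A, differed by -0.26 (SE 0.20), with DPM replicate 3 lowest at 8.03. Marco, a related scavenger receptor, differed by -0.08 (SE 0.11). Chil3, a chitinase-like protein of alternatively activated macrophages, was below the filter at 5.71 ± 0.17 and 5.76 ± 0.34 and was not tested.

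DPM replicate 1 stood above the other 5 tumours for Lyve1 by 1.05 log2 units, for Mrc1 by 0.63, for Cd163 by 0.44, for Folr2 by 0.31 and for the lectin gene Cd209a by 0.12. These 5 genes were grouped after their values were seen, and all were highest there, so a high median in that tumour follows from the choice. Siglech, another lectin gene, stood above the other tumours by 0.15 and was not in the group. Of the 8 scavenger and alternative activation genes DPM replicate 1 was highest for 4, but not for Marco, Msr1, Arg1 or Chil3. The median deviation of the 5 grouped genes from the mean of the 6 tumours was 0.56 in DPM replicate 1. It was between -0.36 and 0.05 in the others. Markers of several other cells were also most often highest in DPM replicate 1, against 16.3% of all genes tested. These were 6 of 7 adipocyte (Lep was highest in vehicle replicate 2), 6 of 8 endothelial, 6 of 10 neutrophil, 3 of 5 mast cell and 3 of 5 NK cell markers. Their median deviations in that tumour were 0.78, 0.21, 0.19, 0.21 and 0.19, but for mast cell markers vehicle replicate 3 was higher, at 0.29. Of the markers highest there, Adipoq, Ngp, Mmp8, Retnlg, Cpa3, Fcer1a, Ncr1, Klrb1c and Klrk1 were below the filter on low values. The 16.3% covers only genes above that filter. Camp and Vwf were highest there by only 0.00 log2 units and Tpsb2 by 0.04. The adipocyte hormone gene Adipoq measured 8.60 in DPM replicate 1 and 5.96 to 7.69 in the others, and the fatty acid carrier gene Fabp4 10.71 against 8.61 to 9.31. The summed intensity of the adipocyte markers was 4778 in DPM replicate 1, 1857 and 1889 in the other DPM tumours and 1947 to 2652 in vehicle tumours. The summed intensity of the endothelial markers was 4962 in DPM replicate 1, 4352 and 4001 in the other DPM tumours and 3926 to 4410 in vehicle tumours. The part of fat tissue, endothelium or other cells in the levels of these receptors was not tested.

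**Figure D3:**
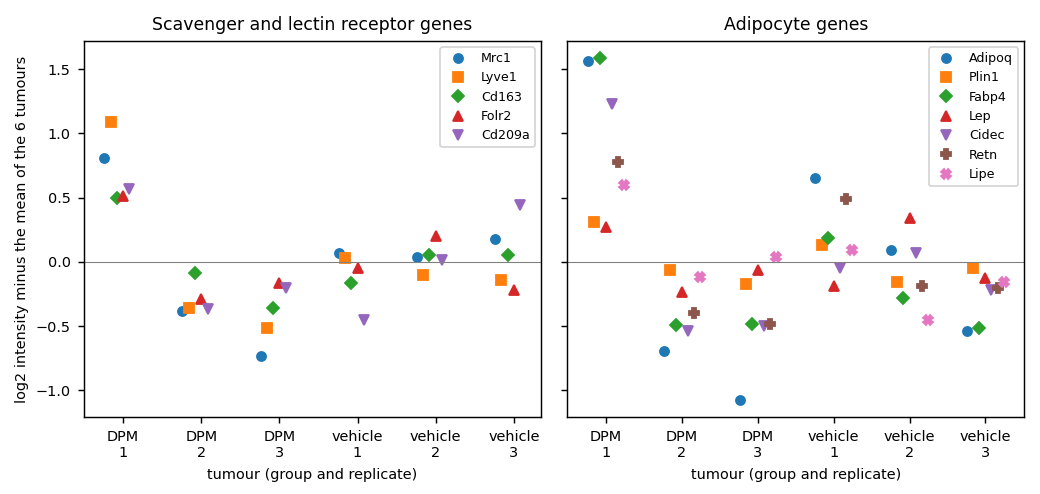
Levels of 5 scavenger and lectin receptor genes (left) and of 7 adipocyte genes (right) in each tumour, as log2 intensity minus the mean of the 6 tumours. In DPM replicate 1 all 5 receptor genes, which were chosen after their values were seen, were at their highest, as were 6 of the 7 adipocyte genes.

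The 7 dendritic cell genes had no common direction, with differences from -0.17 to 0.12. Itgax, the integrin chain CD11c, measured 8.19, 8.38 and 8.16 in DPM and 8.49, 8.18 and 8.57 in vehicle tumours. Vehicle replicate 2 lay within the DPM range, and the difference was -0.17 (SE 0.13, 95% interval -0.46 to 0.13). Flt3, the growth factor receptor of dendritic cell precursors, measured 7.53, 7.54 and 7.32 in DPM and 7.64, 7.36 and 7.33 in vehicle tumours, with almost complete overlap and a difference of 0.02 (SE 0.12). The transcription factor genes Zbtb46 and Batf3, of conventional dendritic cells and their cross-presenting subset, differed by -0.01 (SE 0.14) and -0.00 (SE 0.12). Siglech, a surface lectin of plasmacytoid dendritic cells, differed by 0.03 (SE 0.11).

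Cd209a, the mouse homologue of DC-SIGN found on monocyte-derived dendritic cells, was the most variable of the 7. Its mean was 7.73 ± 0.50 with DPM and 7.73 ± 0.45 with vehicle, and its highest values were 8.30 in DPM replicate 1 and 8.18 in vehicle replicate 3. Clec9a, a receptor of cross-presenting dendritic cells that senses dead cells, was below the filter at 5.86 ± 0.06 and 5.74 ± 0.12. The summed intensity of the 7 genes was 1423 to 1635 in DPM and 1437 to 1611 in vehicle tumours.

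Of 76 other genes of macrophage and dendritic cell biology in 8 lists, 70 were measured and 59 tested, and limma called 0. The lower mean was in DPM tumours for 46 of the 70, against 49.7% of all genes tested. At an unadjusted p under 0.05 there were 6 of the 59 (3.87% of all genes tested), and 8 had groups that did not overlap (6.97%). Among growth factors, chemoattractants and their receptors (6 of 11 lower in DPM), the membrane-bound chemokine gene Cx3cl1 and the monocyte chemoattractant gene Ccl7 differed by -0.26 (SE 0.11) and -0.34 (SE 0.19). Csf1 itself differed by 0.05 (SE 0.17) and Ccl2 by -0.09 (SE 0.14), both named after their values were seen. Among myeloid transcription factors (7 of 12 lower), Cebpb and Runx1 had the smallest p-values, with differences of -0.11 and -0.13.

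Among other genes of phagocytosis and the lysosome 11 of 14 had the lower mean in DPM tumours. Mertk, a receptor tyrosine kinase that takes up apoptotic cells, measured 9.05, 9.16 and 9.71 in DPM and 8.95, 8.66 and 8.75 in vehicle tumours. The groups did not overlap, and the difference of 0.52 (SE 0.18, unadjusted p = 0.0193, limma adjusted p = 1) was opposite in sign to most of the list. DPM replicate 3, lowest for most macrophage genes after normalisation, was the highest for Mertk. Lgals3, galectin-3, which epithelium also makes, measured 11.03, 10.86 and 10.15 in DPM and 11.29, 11.07 and 11.67 in vehicle tumours. The groups did not overlap, and it differed by -0.66 (SE 0.24, unadjusted p = 0.0255, limma adjusted p = 1). Gas6, the ligand of Mertk, was named after its value was seen and differed by -0.28 (SE 0.11), with no overlap.

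The lists of other complement genes (3 of 6 lower), NADPH oxidase partners of Cybb (4 of 4 lower) and other Fc receptor and ITAM genes (3 of 6 lower) held no gene at an unadjusted p under 0.05. Their leading genes were C1ra (-0.28) and Cfb (0.49), Rac2 (-0.10) and Ncf1 (-0.05), and Fcgr2b (-0.25) and Hcst (0.09). Among other alternative activation genes (4 of 7 lower), Tgm2 differed by -0.18 and Vegfa by 0.23. Among other dendritic cell genes (8 of 10 lower), the adhesion molecule gene Cadm1 measured 9.46, 9.51 and 9.46 in DPM and 9.71, 9.76 and 9.77 in vehicle tumours. Its groups did not overlap, and the difference was -0.27 (SE 0.08, unadjusted p = 0.00921, limma adjusted p = 1). Bst2, an interferon-induced antiviral protein also found on plasmacytoid dendritic cells, differed by -0.36 (SE 0.14), also with no overlap.

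The macrophage genes were set beside markers of the other cells of the tumour. DPM replicate 3 was lowest for 10 of 10 fibroblast markers, with a summed intensity of 8900 against 15001 and 17489 in the other DPM tumours and 16332 to 17242 in vehicle tumours. It was also lowest for 4 of 6 markers shared by all leukocytes (median deviation -0.19, the lowest of the 6 tumours), but highest for the marker Lcp1 at 12.01. The summed intensity of the 32 macrophage genes, after quantile normalisation, was 33932 in DPM replicate 3. It was 38516 and 42520 in the other DPM tumours and 40136 to 43484 in vehicle tumours. In the deposited intensities most of the 32 genes were not lowest in DPM replicate 3. The median deviation of the macrophage genes was -0.25 in DPM replicate 3, 0.13 and -0.06 in DPM replicates 1 and 2, and -0.02, 0.02 and 0.17 in the vehicle tumours. That of the fibroblast markers was -0.58 in DPM replicate 3 and between 0.03 and 0.16 in the other 5 tumours. The part of fewer stromal cells, or of the normalisation, in the lower macrophage levels of DPM replicate 3 was not tested. No marker was at 0, since the deposited intensities have no 0 and no detection calls were used.

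**Figure D4:**
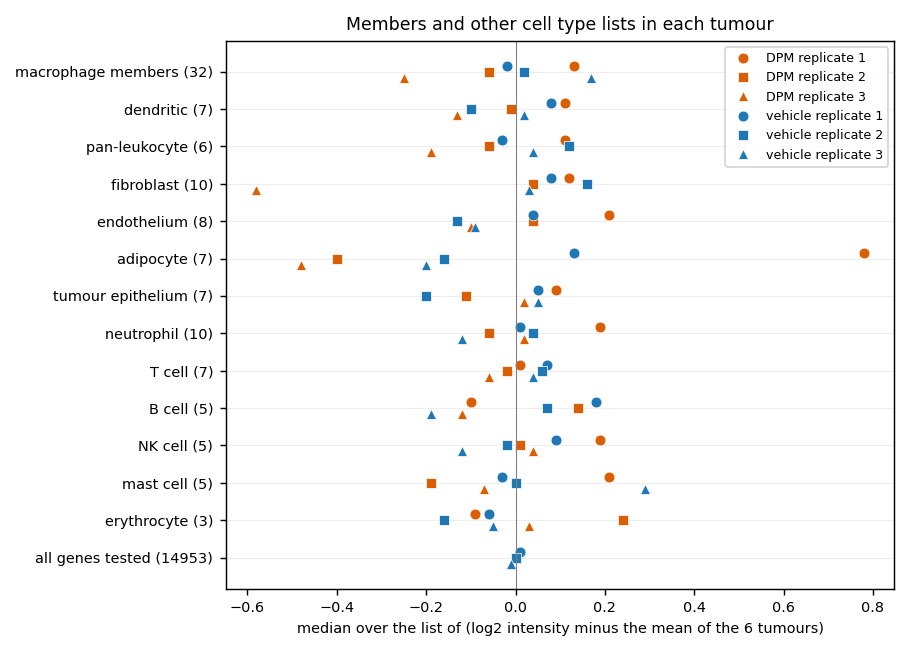
Median over each list of genes (number measured in brackets) of log2 intensity minus the mean of the 6 tumours, for the macrophage and dendritic genes and for markers of other cells. After quantile normalisation DPM replicate 3 was lowest for macrophage genes (-0.25) and for fibroblast markers (-0.58). DPM replicate 1 was highest for adipocyte markers (0.78).

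Of 73 measured marker genes of other cells in 11 lists, 51 were tested and limma called 0, with 3 at an unadjusted p under 0.05 (Elf5, Kit and Alas2), against 3.87% of all genes tested. The lower mean was in DPM tumours for 9 of 10 fibroblast markers (Postn -0.48, Col1a2 -0.32) and 5 of 6 pan-leukocyte markers (Cd53 -0.29, Lcp1 0.23). It was so for 5 of 7 T cell (Cd4 -0.16, Cd3e -0.07), 3 of 5 B cell (Cd79b -0.13, Pax5 -0.13), 3 of 5 NK cell (Prf1 -0.04) and 3 of 5 mast cell markers (Kit -0.31, Tpsb2 0.02). Neutrophil markers were lower for 2 of 10 (Csf3r 0.17, S100a9 0.20), endothelial for 2 of 8 (Kdr 0.20, Cdh5 0.19) and adipocyte for 3 of 7 (Lipe 0.34, Fabp4 0.41). Epithelial markers were lower for 5 of 7 (Elf5 0.32, Krt19 -0.42) and erythrocyte markers for 0 of 3 (Alas2 0.31, Slc4a1 0.07). Summed intensities of the pan-leukocyte markers, Lcp1 included, were 5756 to 6343 in DPM and 5327 to 6385 in vehicle tumours.

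**Figure D5:**
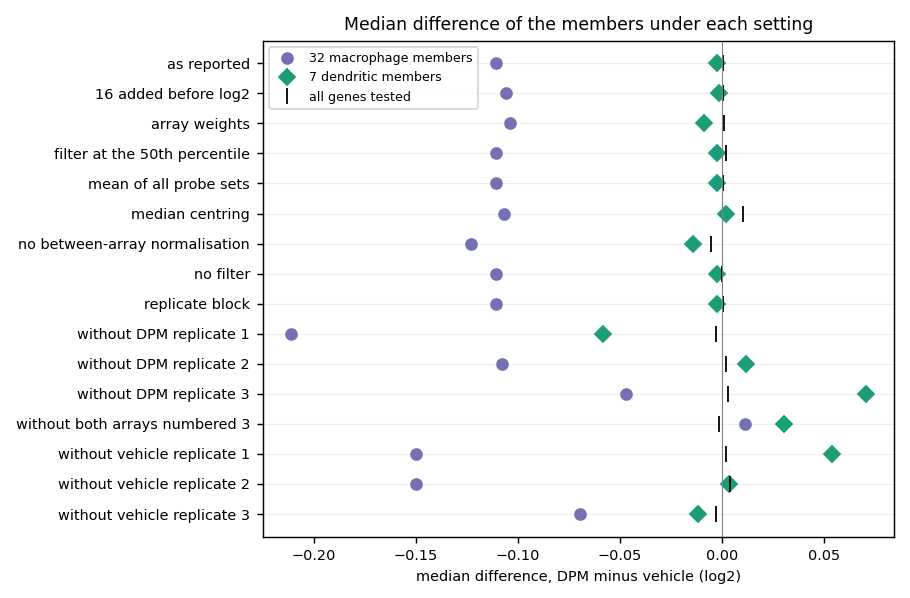
Median difference, DPM minus vehicle on the log2 scale, of the 32 macrophage genes, the 7 dendritic genes and all genes tested, under each setting of the processing. The macrophage median ran from -0.211 without DPM replicate 1 to 0.0111 without both arrays numbered 3.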

How the data were processed

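Total RNA (100 ng per tumour) was made into biotinylated cRNA, per the labels' protocols. The values deposited by the authors are linear intensities, 1 for each of 35556 probe sets on each array. Background correction, probe summary and scaling are not given in the sources used here. No pair of arrays was identical.

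Gene names came from GEO's annotation of the platform, which gave 1 gene for 21789 probe sets and several for 1621 (left out). It did not list 12146, which are unnamed here. Symbols were updated by Entrez identifier for 21698 and kept for 91. Intensities were floored at 1, log2-transformed and quantile-normalised. A gene's probe set with the highest mean over 6 arrays represented it, and those with mean levels under the 25th percentile stayed out of the test.

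DPM minus vehicle was fitted with limma 3.58.1 in R 4.3.3 (two-sided; eBayes, trend on mean intensity), and p-values were adjusted over 14953 genes by Benjamini-Hochberg with a threshold of 0.05. All p-values are from these fits. The fit was tested on simulated data. The genes and lists were chosen with earlier results of these data known.

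All 39 genes are named. Values in every tumour were given for those whose groups did not overlap, for 12 chosen by role and for the largest difference each way. Of each other list the 2 smallest p-values are named, and other genes are marked. Alternatives changed the filter, the between-array normalisation, the probe set rule, the offset, the variance model, array weights, a replicate block and the arrays used. The number of arrays limits the precision. No label pairs the samples by replicate number, and the main fit treated them as unpaired. Same-numbered deviations correlated at -0.12, 0.11 and 0.371, and those with unlike numbers at -0.315 to 0.218. The value of 0.371, the largest, belonged to the arrays numbered 3, and whether these shared a batch was not tested. No batch is named in the labels.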

Additional observations from a re-analysis of the deposited data

How the results depend on the processing

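Of the 39 genes, 13 kept the sign of their difference under all 17 alternatives: Adgre1, Cd14, Ms4a7, Fcgr1, Tyrobp, C1qc, Lyz1, Cybb, Apoe, Marco, Msr1, Itgax and Clec9a. The other 26 changed sign under at least 1, and the cause was not tested. In limma 0 genes of the whole table were called under each alternative. With the replicate block the macrophage and dendritic medians stayed at -0.111 and -0.00245. None of the 37 tested genes was then at an unadjusted p under 0.05 in limma, against 723 of all 14953 genes tested. The unadjusted p of C1qc was 0.0526 with the replicate block, 0.0753 with median centring and 0.122 without between-array normalisation. The mean of all probe sets changed no difference of these genes, since each has 1 probe set.

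Without both arrays numbered 3 the sign changed for 12 genes: Csf1r (0.12), Laptm5 (0.06), Mpeg1 (0.13), Fcgr3 (0.04), Fcer1g (0.02), C1qa (0.04), C1qb (0.02), Lyz2 (0.03), Ctsb (0.00236), Mrc1 (0.16), Arg1 (-0.35) and Cd209a (0.32). With array weights it changed for Gpnmb (-0.000115), Flt3 (-0.01) and Cd209a (0.04), and with median centring for Batf3 (0.00173). With 1 array left out, 21 genes changed sign, with these ranges of the log2 difference: Csf1r -0.22 to 0.04, Cd68 -0.28 to 0.06, Itgam -0.09 to 0.19, Spi1 -0.05 to 0.12, Aif1 -0.19 to 0.01, Laptm5 -0.17 to 0.06, Mpeg1 -0.13 to 0.05, Fcer1g -0.27 to 0.02, Trem2 -0.02 to 0.07, Gpnmb -0.07 to 0.09, Mrc1 -0.65 to 0.12, Cd163 -0.20 to 0.23, Arg1 -0.37 to 0.73, Chil3 -0.15 to 0.15, Folr2 -0.21 to 0.19, Lyve1 -0.37 to 0.43, Flt3 -0.03 to 0.12, Cd209a -0.28 to 0.22, Siglech -0.06 to 0.07, Zbtb46 -0.14 to 0.07 and Batf3 -0.09 to 0.07. Both medians moved by less than the spread between replicates (SD 0.152 macrophage, 0.108 dendritic) under every alternative. That spread was larger than the medians themselves (-0.111 and -0.00245), so this cannot show that they were stable. The macrophage median changed sign, to 0.0111, without both arrays numbered 3.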

Other observations

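DPM replicate 1, highest for Mrc1, Lyve1, Cd163, Folr2 and Cd209a, was also highest for 4 genes of the other macrophage lists that were picked after their values were seen. Of the 7 other alternative activation genes measured, DPM replicate 1 was highest for 2 and lowest for 2 (Il10 and Tgm2). It was highest for 5 of 14 phagocytosis and lysosome, 3 of 12 transcription factor and 3 of 11 growth factor and chemoattractant genes. For other complement this was 2 of 6, NADPH oxidase 0 of 4, other Fc receptor 1 of 6 and other dendritic 1 of 10, against 16.3% of all genes tested. Retnla, a secreted protein of alternatively activated macrophages, measured 7.75 in DPM replicate 1 and 5.35 to 6.32 in the other 5 tumours. Mgl2, a galactose-binding lectin of macrophages and dendritic cells, measured 8.18 against 6.78 to 7.19. Retnla and Mgl2 were below the filter and not tested, and the related lectin gene Clec10a, also below it, was highest in vehicle replicate 3 (7.91 against 7.69 in DPM replicate 1). Cd36, a fatty acid transporter, measured 9.13 against 6.86 to 8.10, and Pparg, a lipid-sensing nuclear receptor, 8.67 against 7.68 to 8.16. Adipocytes express both of these as well.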
